A study of Mus musculus with 2 samples.

Results

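The genes described here are 4 NFAT transcription factors, Nfatc1, Nfatc2, Nfatc3 and Nfat5, and 3 genes of the calcineurin phosphatase, Rcan1, Ppp3ca and Ppp3cb. They were chosen by symbol, and all 7 were found among the 33696 genes counted in both libraries. The study put cells of LLC tumours, a mouse Lewis lung carcinoma line, through droplet single-cell RNA sequencing. The WT library came from wild-type mice and the KO library from Dusp2−/− mice, both bearing these tumours, with 1 library per genotype. The labels describe both as tumour-infiltrating lymphocytes, and name total RNA as the molecule of the WT library but polyA RNA as that of the KO library. The sources used here do not give the age of the mice, the deleted part of Dusp2, the sort, or whether a library pools animals. Dusp2 encodes a nuclear phosphatase of MAP kinases, and the title of the series places it between type I interferon and NFAT.

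NFAT factors wait in the cytoplasm in a phosphorylated form. When calcium enters a cell after antigen receptor signalling, it leads to the activation of calcineurin, which removes those phosphates and lets NFATc1, NFATc2 and NFATc3 enter the nucleus, where they often bind DNA beside AP-1. Ppp3ca and Ppp3cb encode catalytic subunits of calcineurin, Rcan1 encodes a protein that binds and restrains it, and Nfat5 encodes a relative that responds to osmotic stress and does not need calcineurin. In activated T cells NFAT drives cytokine genes and, when it acts without AP-1, genes of exhaustion, and in osteoclasts NFATc1 is the leading regulator. Much of this control acts on the protein, which RNA counts do not measure.

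In the GRCm38 annotation the members are long genes. Nfatc2 lies on chromosome 2 from 168476410 to 168601657, minus strand. Nfatc3 and Nfat5 lie on the plus strand of chromosome 8, at 106058840 to 106130537 and at 107293470 to 107379517. Rcan1 covers 92391953 to 92470867 on chromosome 16, minus strand. Ppp3ca covers 136670124 to 136937727 on the plus strand of chromosome 3, and Ppp3cb covers 20499364 to 20546573 on chromosome 14, minus strand. Their spans run from 47.2 kb for Ppp3cb to 267.6 kb for Ppp3ca. Nfatc1, Nfatc3, Rcan1 and Ppp3cb each overlap a counted gene on the opposite strand (AC123818.1, Esrp2, Gm46555 and 1810062O18Rik). Reads of such a pair cannot be told apart without strand, and the sources used here do not say how the counting treated it.

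Rcan1 is the member best known as a target of the pathway it restrains, because the shorter of its transcripts starts inside the gene and is induced by NFAT. RefSeq promoter windows on GRCm38.p6, 250 bases before to 50 after a start, were found for 5 of the 7 members. Both Rcan1 windows are shown so that the start inside the gene can be set beside the upstream one, and the upstream Nfatc2 window is shown because Nfatc2 was the NFAT gene that differed most between cell classes. Capitals mark GGAAA, the core that NFAT prefers, on either strand (TTTCC is the same core on the other strand), and TGANTCA, the AP-1 core. None of the marked motifs overlap. The start inside Rcan1 is chr16:92400029-92400328, minus strand, the upstream start is chr16:92466120-92466419, minus strand, and the Nfatc2 start is chr2:168601608-168601907, minus strand.
Rcan1, start inside the gene: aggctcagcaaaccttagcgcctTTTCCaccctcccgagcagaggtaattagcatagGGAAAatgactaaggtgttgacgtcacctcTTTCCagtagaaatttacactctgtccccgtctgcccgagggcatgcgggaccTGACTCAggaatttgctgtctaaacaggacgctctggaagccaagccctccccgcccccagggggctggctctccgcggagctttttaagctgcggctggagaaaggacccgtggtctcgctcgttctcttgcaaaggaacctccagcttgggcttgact
Rcan1, upstream start: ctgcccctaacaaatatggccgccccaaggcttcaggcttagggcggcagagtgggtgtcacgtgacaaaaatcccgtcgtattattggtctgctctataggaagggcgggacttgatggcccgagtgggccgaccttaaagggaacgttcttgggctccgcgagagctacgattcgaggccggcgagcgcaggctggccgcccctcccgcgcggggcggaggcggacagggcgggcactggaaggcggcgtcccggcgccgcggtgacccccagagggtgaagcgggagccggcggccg
Nfatc2, upstream start: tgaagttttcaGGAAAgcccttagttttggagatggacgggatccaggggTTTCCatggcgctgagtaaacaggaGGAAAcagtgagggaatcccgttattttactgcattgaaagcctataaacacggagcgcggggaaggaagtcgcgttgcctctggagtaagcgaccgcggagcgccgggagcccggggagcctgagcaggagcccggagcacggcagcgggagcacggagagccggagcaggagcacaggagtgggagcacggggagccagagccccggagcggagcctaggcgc
The window inside Rcan1 holds 3 NFAT cores, 1 as printed and 2 on the other strand, and 1 AP-1 match. The upstream Rcan1 window holds neither motif. The Nfatc2 window holds 3 NFAT cores and no AP-1 match. The NFAT core occurs in 61.3% of 32851 promoter windows and the AP-1 core in 7.81%, so an NFAT core alone sets no window apart. The 3′ UMIs do not tell which start a transcript used.

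The WT library held 9890 barcodes with 113873249 UMIs and the KO library 12744 with 101532711, and the libraries shared 31 barcodes, 0.313% of WT and 0.243% of KO. After the cell filters the median was 8598 UMIs per cell in WT and 4796 in KO. Cells were placed in 6 classes by raw UMIs of marker genes, and cells that met no gate (26.6% of WT, 28.1% of KO) or several gates (2.75% and 4.33%) were left out. T cells numbered 1245 in WT and 2212 in KO, NK cells 264 and 108, macrophages 4595 and 1505, dendritic cells 348 and 262, and tumour cells 440 and 368. B cells numbered 11 in WT and 4081 in KO, so B cells are described in KO only. Of 8 further markers per class, all 8 were higher in the class than in the other gates for each immune class in both libraries. For tumour cells 5 of 8 were, among them Rhox5 and Krt8, while Cdkn2a and Epcam were at 0 UMIs and Fn1 was not higher. Dusp2 itself was at 410 CPM in WT T cells and 8.42 in KO, at 925 and 3.84 in NK cells and at 69.3 and 8.97 in macrophages. In tumour cells, which come from the grafted line, it was at 77.5 CPM in WT and 78.8 in KO. With 1 library per genotype nothing here has a replicate check, no test was made, and genotype cannot be told apart from animal, tumour or library preparation. A level is the UMIs of a gene per 1000000 UMIs of its class (CPM), and every interval is 95% and covers counting error only.

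**Figure D1:**
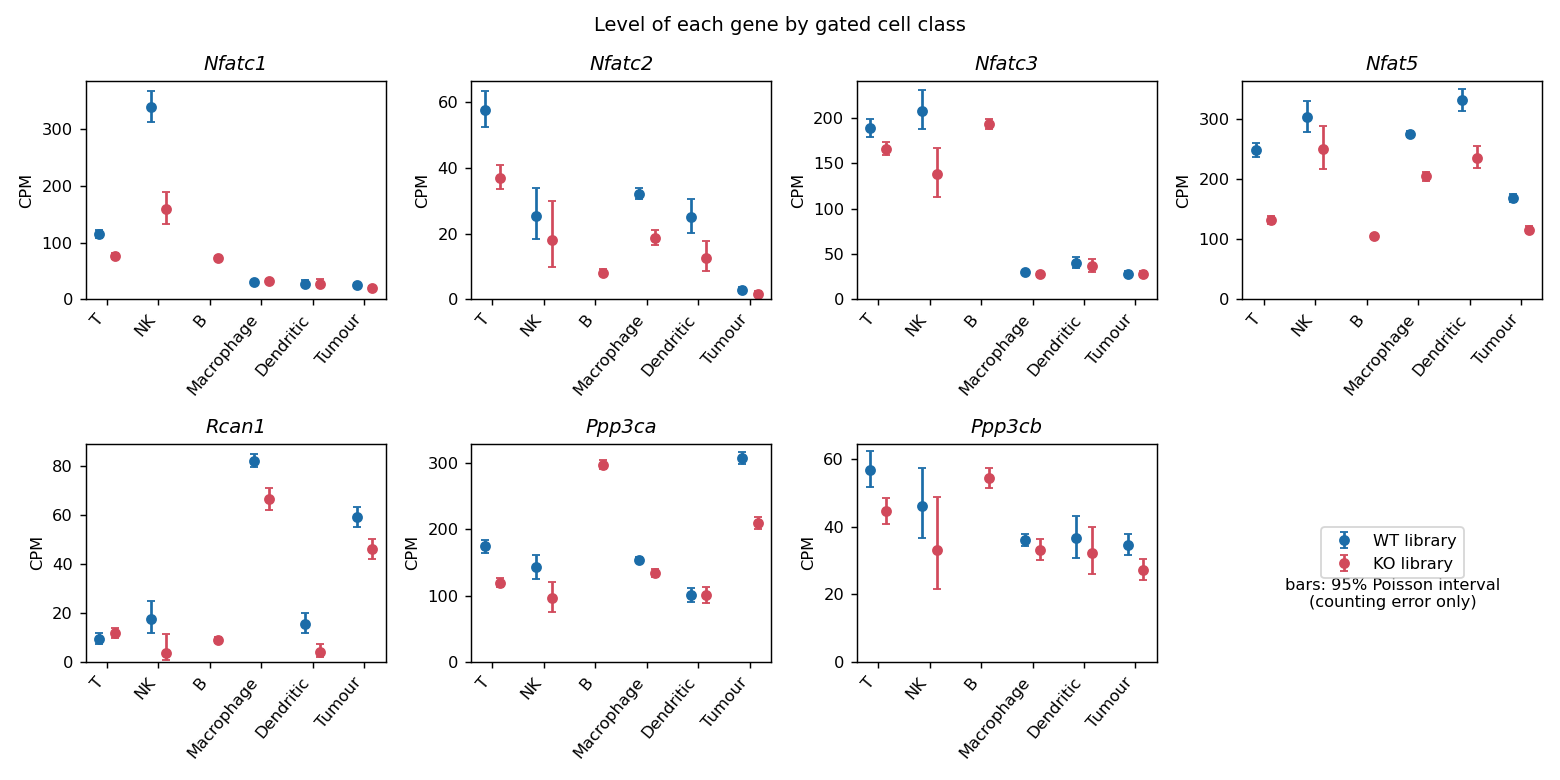
Level of each of the 7 genes in CPM (vertical axis, starting at 0) by gated class, with blue points for the WT library, red points for KO and bars for 95% Poisson intervals; B cells are shown for KO only. Nfatc1 reaches 339 CPM in WT NK cells, Nfatc2 is highest in T cells and lowest in tumour cells, and Rcan1 is highest in macrophages.

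Among the 3 calcium-regulated NFAT genes, Nfatc1 and Nfatc3 were highest in lymphoid classes in both libraries and Nfatc2 in T cells with macrophages next. Nfatc1 (chromosome 18, 80606205 to 80713071, minus strand) was highest in NK cells, at 339 CPM (312 to 367) in WT and 159 (132 to 189) in KO. T cells followed at 115 and 76.7 CPM, and B cells of KO stood at 72.8, next to KO T cells within counting error. Macrophages, dendritic and tumour cells were between 26.0 and 30.0 CPM in WT and between 20.6 and 32.2 in KO. The highest class was 13.0 times the lowest in WT and 7.70 times in KO.

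Nfatc2, the NFAT factor long known from resting T cells, had the widest range of the 7. T cells held 57.7 CPM in WT and 37.1 in KO, ahead of macrophages at 32.1 and 18.7. NK and dendritic cells did not differ from each other beyond counting error in either library. KO B cells were low at 8.16 CPM. Tumour cells were lowest, at 2.80 CPM (1.98 to 3.84) in WT and 1.71 (1.03 to 2.67) in KO, and T cells exceeded them 20.6-fold and 21.7-fold. Nfatc3, by contrast, was high in all 3 lymphoid classes. It stood at 208 CPM in NK cells and 189 in T cells of WT, and at 194 in B, 166 in T and 138 in NK cells of KO. The other classes lay between 28.0 and 40.3 CPM in WT and between 27.5 and 36.8 in KO, with dendritic cells above macrophages in both libraries.

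Nfat5 varied little between classes. Its highest level was 1.98 times the lowest in WT, from 332 CPM in dendritic to 168 in tumour cells, and 2.40 times in KO, from 251 in NK to 105 in B cells. Ppp3cb was the flattest gene, from 34.7 to 56.9 CPM in WT (1.64 times) and from 27.2 to 54.4 in KO, and in WT no pair of neighbours in its order differed beyond counting error. Its sister subunit Ppp3ca was uneven. Tumour cells led in WT with 307 CPM, ahead of T cells at 174. In KO, B cells led with 297 CPM, ahead of tumour cells at 209, and NK and dendritic cells were lowest at 96.0 and 101.

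Rcan1 had an order of its own. It was highest in macrophages, at 82.1 CPM (79.5 to 84.8) in WT and 66.3 (62.1 to 70.7) in KO, and next in tumour cells at 59.0 and 46.0. No lymphoid class exceeded 17.5 CPM. Over the 11 points of class and library with at least 50 cells, its Pearson correlation of log2(CPM + 1) was -0.63 with Nfatc3, -0.49 with Nfatc1, -0.29 with Nfatc2 and -0.09 with Nfat5. Nfatc1 and Nfatc3 had 0.89 and Nfatc3 and Ppp3cb 0.81. These points share libraries and depth and are given as a description.

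**Figure D2:**
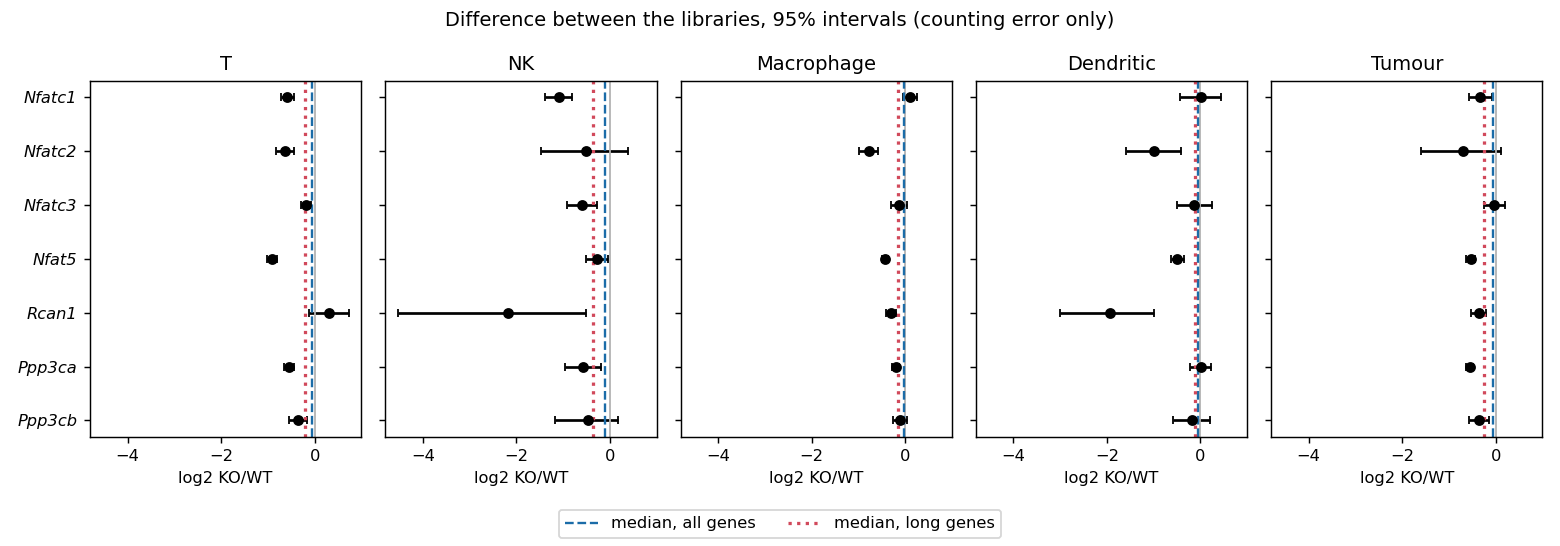
log2 ratio of KO to WT (horizontal axis) for the 7 genes (rows) in 5 gated classes (panels), with 95% intervals for counting error; the dashed line is the median of all genes compared in that class and the dotted line that of genes at least as long as the shortest member. Most points lie left of 0, Rcan1 in NK and dendritic cells lies farthest left, and Rcan1 in T cells lies to the right with an interval that includes 0.

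In T cells 6 of the 7 genes were lower in the KO library with intervals below 0, and none was 2-fold apart. Of the 12252 genes with at least 20 UMIs in 1 library, 4.26% were at least 2-fold lower and 4.63% at least 2-fold higher in KO T cells. Counted as the members were, 27.8% of those genes had intervals below 0 and 16.6% above, and 45.9% and 12.4% of the 3497 genes spanning at least 47.2 kb, here called long genes. Nfat5 differed most, from 248 CPM (237 to 260) in WT to 132 (126 to 139) in KO, a log2 ratio of -0.91 (-1.01 to -0.81) below which lay 5.10% of those genes. Nfatc2 went from 57.7 to 37.1 CPM (-0.64, -0.83 to -0.44) and Nfatc1 from 115 to 76.7 (-0.58, -0.72 to -0.45). Of the phosphatase subunits, Ppp3ca went from 174 to 120 CPM (-0.54) and Ppp3cb from 56.9 to 44.6 (-0.35). Nfatc3 differed least, 189 against 166 CPM (-0.19, -0.28 to -0.09). The make-up of the T gate differed between the libraries. A Pdcd1 UMI was seen in 647 of 1245 WT and 377 of 2212 KO cells, and Ccr7 or Lef1 in 615 and 1548. The Nfatc3 ratio was 0.07 (-0.10 to 0.25) in T cells with Pdcd1 and -0.47 (-0.60 to -0.35) in those without. The part of make-up in the T-cell ratios was not tested. The median of the 7 was -0.54, beside -0.06 for all genes compared and -0.21 for long genes, of which 69.9% had ratios below 0.

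Rcan1 in T cells was 9.46 CPM in WT and 11.7 in KO, and the interval of its log2 ratio, 0.30 (-0.12 to 0.74), includes 0. In KO, 51 of its 136 UMIs came from 47 T-gated cells with at least 5 UMIs of Rhox5, a gene of the tumour cells, and these cells had a median of 16710 UMIs. Without such cells Rcan1 was at 7.48 CPM in WT and 7.95 in KO. Thinning T cells to 2000 UMIs, which kept the 1198 WT and 1832 KO cells with at least that many, gave Rcan1 a log2 ratio of -0.41. Without 2 KO cells rich in Ctsk and Acp5, which held 9 of the Rcan1 UMIs, it was 0.21. The 47 cells with Rhox5 held 65 of the 98 Dusp2 UMIs of KO T cells. Divided by Ccr7 and Lef1 UMIs, the Rcan1 ratio was 0.86 (0.25 to 1.49) in T cells with neither and 0.15 (-0.46 to 0.78) in the rest. The part of the cells with Rhox5 in these 2 ratios was not tested.

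**Figure D3:**
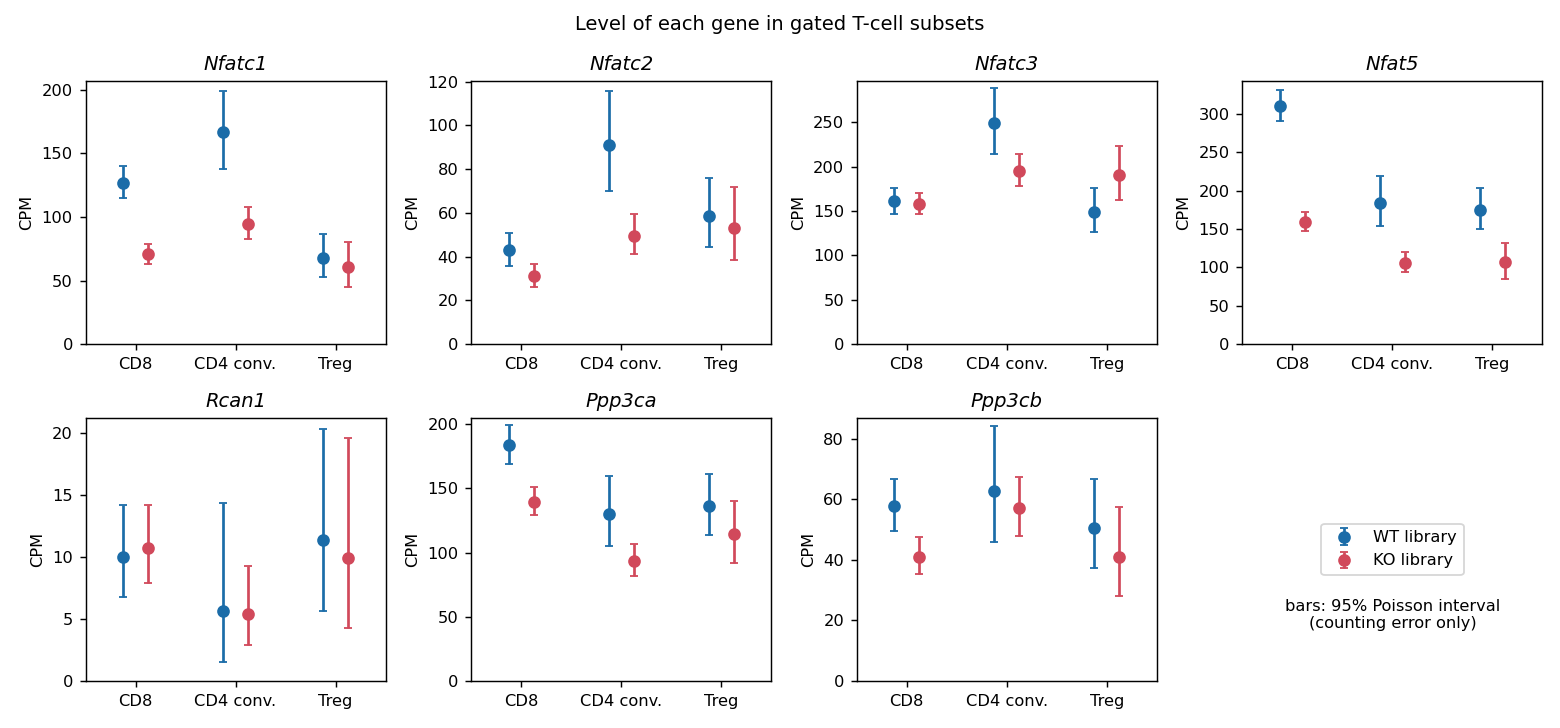
Level of each gene in CPM (vertical axis, starting at 0) in CD8, conventional CD4 and regulatory (Treg) T cells, with blue points for WT, red for KO and bars for 95% Poisson intervals. Nfat5 is lower in KO in all 3 subsets, while Nfatc1 is lower in CD8 and conventional CD4 cells and its regulatory T intervals overlap.

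T cells were then divided by Cd8a and Cd8b1, Cd4 and Foxp3 UMIs. CD8 T cells numbered 471 in WT and 804 in KO, conventional CD4 T cells 148 and 435 and regulatory T cells 128 and 134. In CD8 T cells Nfatc1 was at 127 CPM in WT and 70.5 in KO, a log2 ratio of -0.85 (-1.07 to -0.63), and at 166 and 94.6 in conventional CD4 T cells, -0.81 (-1.14 to -0.48). In regulatory T cells it was at 67.9 and 60.8 CPM, with an interval of -0.72 to 0.39. Nfat5 was lower in KO in all 3 subsets, from 310 to 160 CPM in CD8, from 185 to 106 in conventional CD4 and from 175 to 107 in regulatory T cells. Nfatc2 differed most in conventional CD4 T cells, 90.9 against 49.6 CPM (-0.87, -1.32 to -0.41).

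In CD8 T cells Nfatc3 was at 161 CPM in WT and 158 in KO. In conventional CD4 T cells it was lower in KO, 249 against 195 CPM (-0.35, -0.60 to -0.09), and in regulatory T cells it was higher, 149 against 191 (0.36, 0.02 to 0.69). Ppp3ca was lower in KO in CD8 T cells, 183 against 140 CPM, and in conventional CD4 T cells, 130 against 93.4. Rcan1 had at most 48 UMIs in a subset and every interval of its ratio includes 0.

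Some differences between subsets held within each library, so they do not rest on setting the libraries side by side. Conventional CD4 T cells had more Nfatc1 than CD8 T cells, by a log2 of 0.39 (0.08 to 0.69) in WT and 0.42 (0.17 to 0.67) in KO. They also had more Nfatc2, by 1.08 and 0.68, and more Nfatc3, by 0.63 and 0.30. CD8 T cells in turn had more Nfat5 (-0.75 and -0.59 on the same ratio) and more Ppp3ca (-0.50 and -0.58). Regulatory T cells had less Nfatc1 than conventional CD4 T cells, by -1.29 (-1.75 to -0.85) in WT and -0.64 (-1.11 to -0.19) in KO. Their lower Nfatc2 and Nfatc3 in WT (-0.63 and -0.74) had no counterpart in KO, where the ratios were 0.11 and -0.03 with intervals that include 0. The subsets were gated partly by the absence of marker UMIs, which depends on depth, and the part of depth in these differences was not tested.

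Pdcd1 encodes the inhibitory receptor PD-1, and its induction by NFATc1 is textbook knowledge. In WT, T cells with a Pdcd1 UMI had 114 CPM of Nfatc1 and those without 116 (-0.02, -0.22 to 0.17). In KO they had 85.2 against 74.2 (0.20, -0.02 to 0.42). In CD8 T cells the interval of that ratio includes 0 in both libraries, with 131 against 117 CPM in WT and 73.6 against 69.4 in KO. Nfat5 was higher in CD8 T cells with Pdcd1, by 0.34 (0.12 to 0.56) in WT and 0.31 (0.08 to 0.54) in KO. Nfatc2 was lower in WT CD8 T cells with Pdcd1, 33.7 against 66.3 CPM, and in KO it was 27.0 against 32.5 with an interval that includes 0. The KO/WT ratio of Nfatc1 in CD8 T cells was -0.83 with Pdcd1 and -0.75 without. The cells compared differ in depth, which also decides where a Pdcd1 UMI is seen.

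Within WT T cells the 810 cells with a Dusp2 UMI were set beside the 435 without. Nfat5 was at 282 CPM in cells with Dusp2 and 162 in cells without, a log2 ratio of 0.80 (0.63 to 0.97). Nfatc1 was 122 against 98.0 CPM (0.31, 0.09 to 0.54), while Nfatc2 was lower beside Dusp2, 49.0 against 79.8 (-0.70, -0.99 to -0.42). The ratios of Nfatc3, Rcan1, Ppp3ca and Ppp3cb had intervals that include 0. Median depth was 5598 UMIs with Dusp2 and 4527 without. In WT, CD8 T cells also had more Nfat5 and less Nfatc2 than conventional CD4 T cells, but less Nfatc1. The parts of depth and of T-cell subset in the differences by Dusp2 were not tested.

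In NK cells all 7 genes were lower in the KO library, 5 of them with intervals below 0, and 2, Nfatc1 and Rcan1, were at least 2-fold lower. Of 7899 genes compared there, 7.66% were at least 2-fold lower and 1.48% at least 2-fold higher, so the NK comparison as a whole leaned to lower values in KO. Ratios were below 0 for 59.2% of all genes and 78.3% of long genes, and intervals were below 0 for 17.1% and 33%. The NK gate held 3 fibroblast markers at a summed 503 CPM in WT and 32 in KO, 4 macrophage markers at 249 and 166 and 2 tumour markers at 113 and 119, and their part in these differences was not tested. Nfatc1 went from 339 CPM (602 UMIs in 264 cells) to 159 (124 UMIs in 108 cells), a log2 ratio of -1.09 (-1.39 to -0.81). It was at least 2-fold lower in 8 of 12 recalculations. It was under 2-fold with cells thinned to 2000 UMIs (-0.62), with CPM over long genes alone (-0.72), as a mean over cells (-0.83) and centred on the median of all genes (-0.98). Rcan1 had 31 UMIs in WT and 3 in KO, a log2 ratio of -2.18 (-4.54 to -0.50). In WT, 12 of those 31 lay in 3 NK cells with at least 5 Rhox5 UMIs, and the remaining cells gave 11.4 CPM against 4.23 in KO. Nfatc3 went from 208 to 138 CPM (-0.59) and Ppp3ca from 142 to 96.0 (-0.57). Nfat5 was 303 against 251 CPM (-0.27, -0.52 to -0.04), and 1 KO cell held 37 of the 196 KO UMIs. Without the top cell of each library the Nfat5 ratio was -0.54. Nfatc2, with 45 and 14 UMIs, and Ppp3cb, with 82 and 26, had intervals that include 0. The median of the 7 was -0.57, beside -0.11 for all genes and -0.35 for long genes.

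B cells of KO could be divided by Ighd, the IgD heavy chain that marks mature naive B cells, into 2057 cells with and 2024 without a UMI. Nfatc1 was at 102 CPM in cells with Ighd and 52.3 in the others (0.97, 0.83 to 1.10). Nfat5 was 145 against 76.5 CPM (0.92), Ppp3ca 396 against 228 (0.80) and Nfatc3 256 against 151 (0.76). Ppp3cb differed less, 60.9 against 49.9 CPM (0.29, 0.13 to 0.44). Nfatc2 and Rcan1 were low in both, between 8.04 and 9.10 CPM, and their intervals include 0. The median depth was 4273 UMIs with Ighd and 4683 without. Plasma cell genes Jchain, Xbp1 and Mzb1 made up 5121 CPM of the KO B-cell gate, and their part in these values was not tested.

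Macrophages gave narrow intervals for most members, but those of Nfatc1 and Nfatc3 were wider than in T cells. Of their 14491 genes compared, 2.79% were at least 2-fold lower and 2.01% at least 2-fold higher in KO, and no member was 2-fold apart. Of the members 4 had intervals below 0 and 0 above, beside 22.6% and 18% of all genes and 40.3% and 10.4% of long genes. Nfatc2 differed most, with 32.1 CPM (30.5 to 33.8) in WT and 18.7 (16.5 to 21.1) in KO, a log2 ratio of -0.78 (-0.98 to -0.59) with 4.15% of the genes below it. With cells thinned to 2000 UMIs its ratio was past 2-fold, at -1.40 when thinned before gating and -1.14 when thinned after. Nfat5 was 275 against 204 CPM (-0.43, -0.49 to -0.37), Rcan1 82.1 against 66.3 (-0.31, -0.41 to -0.20) and Ppp3ca 154 against 134 (-0.20, -0.27 to -0.13). The intervals of Nfatc1, Nfatc3 and Ppp3cb include 0. The median of the 7 was -0.20, beside -0.02 for all genes and -0.15 for long genes.

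**Figure D4:**
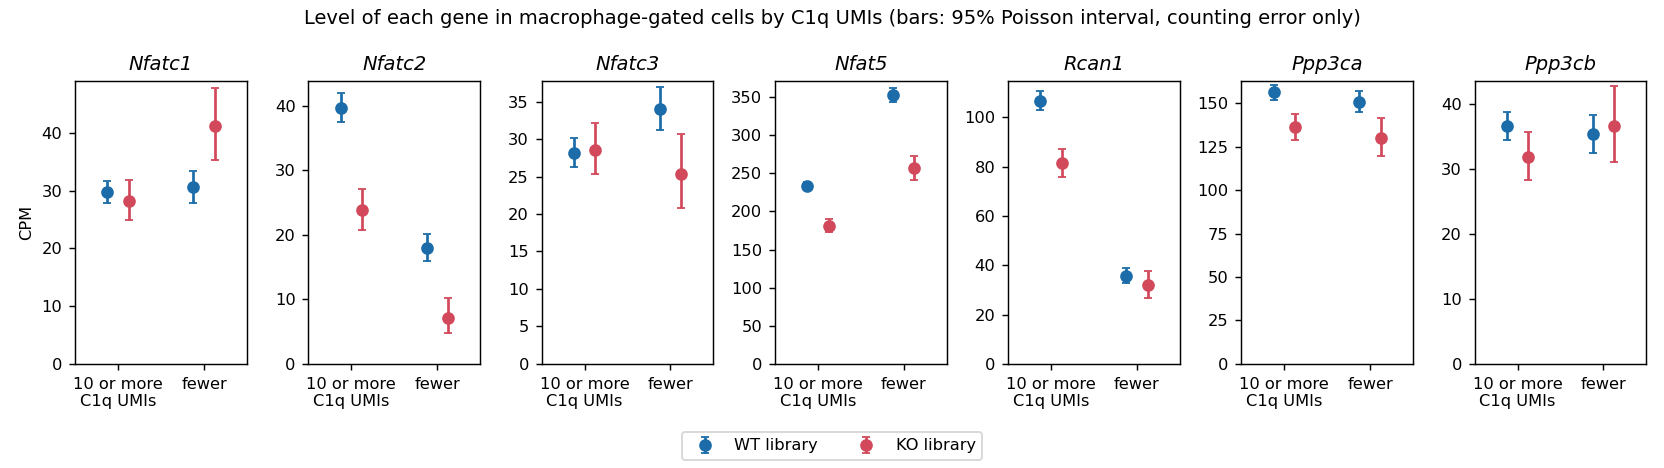
Level of each gene in CPM (vertical axes, starting at 0, each with its own scale) in macrophage-gated cells with at least 10 C1q UMIs and with fewer, blue for WT and red for KO, with 95% Poisson intervals. Rcan1 and Nfatc2 are higher and Nfat5 lower in cells with C1q in both libraries.

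For Rcan1, macrophages differed more among themselves than between the libraries. Complement C1q genes mark mature tissue macrophages, and 2707 WT and 919 KO cells had at least 10 C1q UMIs. Rcan1 was at 107 CPM in these cells and 35.7 in the rest in WT, a log2 ratio of 1.58 (1.45 to 1.71), and at 81.4 and 32.0 in KO, 1.35 (1.08 to 1.62). Nfatc2 followed the same division, by 1.14 (0.96 to 1.33) in WT and 1.74 (1.19 to 2.34) in KO. Nfat5 went the other way, by -0.59 in WT and -0.50 in KO. Ppp3ca and Ppp3cb did not differ beyond counting error in either library. Cells with C1q were also the deeper ones, with medians of 10435 against 8113 UMIs in WT and 8639 against 6227 in KO.

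The KO/WT ratio of Nfatc2 was -0.74 in cells with C1q and -1.34 (-1.93 to -0.79) in cells low in C1q, the latter from 17.9 to 7.11 CPM. Nfatc1 was higher in KO in cells low in C1q, 30.6 against 41.2 CPM (0.43, 0.17 to 0.68). This rested on 4 cells, 2 in each library, with at least 50 UMIs each of Ctsk and Acp5, which held 39 WT and 47 KO UMIs of Nfatc1. Without them the levels were 28.2 and 30.4 CPM and the log2 ratio was 0.11 (-0.19 to 0.39). Division by Arg1, an enzyme of alternatively activated macrophages, gave smaller differences. Rcan1 was higher with Arg1 in WT, 97.6 against 73.9 CPM, and 68.1 against 65.4 in KO, with an interval that includes 0. Nfatc1 was lower with Arg1 in both libraries, by -0.27 (-0.44 to -0.10) and -0.54 (-0.86 to -0.23).

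In dendritic cells 1 of the 7 genes, Rcan1, was at least 2-fold lower in KO, and none was 2-fold higher. Among 9455 genes compared, 3.37% were at least 2-fold lower and 3.06% at least 2-fold higher, and intervals were below 0 for 15.7% of all genes and 23.2% of long genes, beside 3 of the 7. Rcan1 had 60 UMIs in WT and 11 in KO, 15.5 against 4.09 CPM (-1.92, -3.00 to -0.98). In WT, 18 of those 60 lay in 10 dendritic cells with at least 5 Rhox5 UMIs, and in KO 2 of the 11 lay in 4 such cells. Leaving these cells out gave Rcan1 a log2 ratio of -1.72. The dendritic gate held 4 macrophage markers at a summed 687 CPM in WT and 481 in KO, and their part in the Rcan1 ratio was not tested. With every gate needing double the marker UMIs, the Rcan1 ratio turned to 0.55. That setting also raised the UMIs at which a cell was left out as meeting several gates, so it is not simply a purer gate. The cause of the turn was not tested. Nfatc2 was 25.1 against 12.6 CPM (-0.99, -1.60 to -0.41) and Nfat5 332 against 236 (-0.49, -0.63 to -0.35). Nfatc1 and Ppp3ca had ratios of 0.01 (-0.43 to 0.45) and 0.00 (-0.23 to 0.23). With cells thinned to 2000 UMIs before gating, which left 134 WT and 89 KO cells, Nfatc1 was at -1.87 and Nfatc2 at 0.27, so the direction of Nfatc2 here was not stable. The median of the 7 was -0.18, beside -0.04 for all genes and -0.11 for long genes.

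Mature dendritic cells that move to lymph nodes express Ccr7, and 217 WT and 140 KO cells had at least 2 Ccr7 UMIs. They were set beside the 102 and 78 cells with at most 1 UMI of Ccr7 and the markers Xcr1 and Clec9a together. Nfat5 was higher in cells with Ccr7, 408 against 268 CPM in WT (0.61, 0.42 to 0.80) and 311 against 178 in KO (0.80, 0.52 to 1.09). Ppp3ca was lower, 82.9 against 141 CPM in WT and 85.9 against 138 in KO. Nfatc1 and Nfatc2 were lower with Ccr7 in WT, by -0.96 and -1.41, while in KO their intervals include 0.

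Tumour cells, the grafted line in both hosts, had no member 2-fold apart. The tumour gate held 3 fibroblast markers at a summed 978 CPM in WT and 519 in KO. It held 4 macrophage markers at 117 and 60.4 CPM. The part of these differences in the members' ratios was not tested. Among 11832 genes compared, 3.7% were at least 2-fold lower and 1.18% at least 2-fold higher. All 7 ratios were below 0, beside 56.7% for all genes and 76.8% for long genes. For 5 members the interval was below 0, beside 26.4% for all genes and 49% for long genes. Ppp3ca went from 307 CPM (298 to 317) to 209 (201 to 218), a log2 ratio of -0.55, and Nfat5 from 168 to 116 (-0.53). Rcan1 (-0.36), Ppp3cb (-0.35) and Nfatc1 (-0.33) were alike in size, and Nfatc3 was 28.0 against 27.5 CPM. The median of the 7 was -0.36, beside -0.05 for all genes and -0.25 for long genes.

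**Figure D5:**
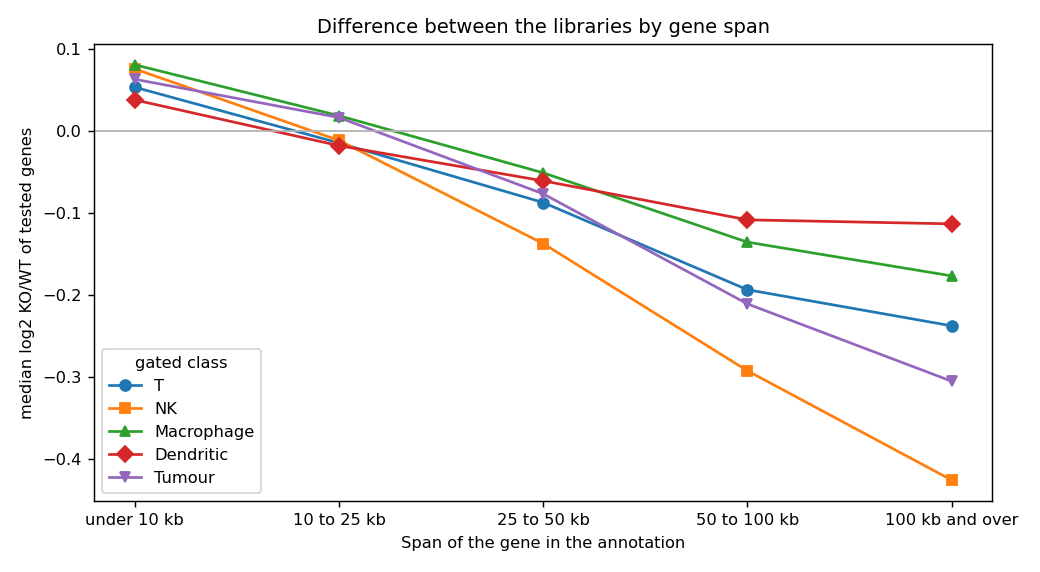
Median log2 ratio of KO to WT of all genes compared (vertical axis) in 5 groups of gene span (horizontal axis), with 1 line for each gated class. Every line goes down from genes under 10 kb to genes of 100 kb and over, to -0.43 in NK and -0.11 in dendritic cells.

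Gene span moved with the difference between the libraries in every class. Genes under 10 kb had medians from 0.04 in dendritic cells to 0.08 in macrophages. Genes of 100 kb and over had -0.43 in NK, -0.31 in tumour, -0.24 in T cells, -0.18 in macrophages and -0.11 in dendritic cells. All 7 members span at least 47.2 kb, and the sources used here do not say whether intronic reads were counted, so the part of span in the members' ratios was not tested beyond setting them beside genes of like span. Against the long-gene median of its class, Nfat5 was lower by a log2 of -0.70 in T cells, -0.38 in dendritic cells and -0.28 in both macrophages and tumour cells, and was 0.08 in NK cells. Nfatc2 was below that median in all 5 classes, from -0.88 in dendritic to -0.15 in NK cells, and in macrophages 4.96% of long genes lay below it. Nfatc1 was below it in T cells (-0.38), NK cells (-0.74) and tumour cells (-0.08) and above it in macrophages (0.25) and dendritic cells (0.12). Without cells rich in Ctsk and Acp5, the KO/WT log2 ratio of Nfatc1 in macrophages was 0.01 in place of 0.10. Nfatc3 was within 0.24 of the long-gene median in all 5 classes. With CPM computed over long genes alone the median of the 7 was -0.24 in T cells, 0.05 in macrophages and -0.11 in tumour cells.

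The rest of the pathway was followed with 5 lists. They were chosen with earlier results of these data known, so their counts are a description and not independent support. In T cells the activation genes linked to NFAT had 12 of 19 measured genes with intervals below 0 and 4 above, with a median of -0.41, beside 27.8% of all genes below and 16.6% above. Pdcd1 was lower in KO T cells, 325 against 84.0 CPM (-1.95), as were the co-stimulatory receptor Tnfrsf9, 821 against 352 (-1.22), and the inhibitory receptor Lag3, 69.8 against 30.8 (-1.18). The make-up of the T gate differed between the libraries, and its part in the values of this list was not tested. Il21, a cytokine of helper T cells, had 1 UMI in WT and 45 in KO (4.88, 2.33 to 10.2). Cd40lg, the helper ligand, was 18.8 against 26.9 CPM (0.52) and Rcan3, a relative of Rcan1, 9.73 against 15.5 (0.68). Of 11 calcium entry genes, such as Stim1 and Orai1, 5 had intervals below 0 and 1 above in T cells, with a median of -0.17. Of 8 kinases that phosphorylate NFAT, 4 were below and 0 above, with a median of -0.12. Among long genes 45.9% were below and 12.4% above, and the part of span in the counts of these lists was not tested. The list of calcineurin inhibitors and scaffolds had a median of 0.02 and that of osmotic-stress genes linked to Nfat5 -0.05, beside the -0.06 of all genes.

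In NK cells, unlike in T cells, Pdcd1 and Lag3 were higher in KO, 46.2 against 96.0 CPM (1.06) and 16.9 against 62.7 (1.89), with Csf2 at 10.1 and 37.1 (1.87). The difference between NK and T cells was not tested, and Cd3 UMIs were 16.3 CPM in WT and 14.1 in KO NK cells. Fibroblast markers in the NK gate were at 503 and 32.0 CPM and macrophage markers at 249 and 166, and their part was not tested. Itpr2, a calcium channel of the endoplasmic reticulum, was lower, 110 against 42.2 CPM (-1.38), as were the orphan receptors Nr4a3, 192 against 87.0 (-1.14), and Nr4a2, 235 against 142 (-0.73). In macrophages the 8 NFAT kinases had 6 intervals below 0 and 0 above, and calcium entry had 7 of 11 below and 2 above, beside 22.6% of all genes below and 18% above. Among long genes the shares were 40.3% and 10.4%, and the part of span in these counts was not tested. Macrophage Nr4a3 was 70.2 against 42.5 CPM (-0.73) and Orai2 37.9 against 25.6 (-0.57). Rcan2 had 4 UMIs in WT and 23 in KO, Tox was 1.69 against 3.76 CPM, and Akr1b3, the aldose reductase of the osmotic response, 84.4 against 107 (0.35). Akap5, a scaffold of calcineurin, had 64 UMIs in WT and 5 in KO.

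Dendritic cells had higher Lag3 in KO, 6.72 against 27.1 CPM (2.01), and Slc38a2, an amino acid transporter of the osmotic response, at 126 and 146 (0.21). Ppia, the third in that order, had an interval that includes 0. Pdcd1 (-1.04) and the kinase Dyrk2 (-0.91) were lower. In tumour cells Nr4a2 was 35.6 against 66.6 CPM (0.90), Nr4a3 4.12 against 8.82 (1.10) and Slc38a2 144 against 171 (0.25), and Itpr3 (-0.67), Csf2 (-0.69) and the kinase Csnk1a1 (-0.37) were lower. Thus Nr4a3 was lower in KO in NK cells and macrophages and higher in tumour cells, and these differences between classes were not tested.

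The genes whose pattern over the 11 points was most like that of each member were taken from 8332 candidates. For Nfatc1 they were Ccny, Mphosph9 and Oxr1, with r of 0.98, 0.97 and 0.97. For Nfatc2 they were Pak2, Erbin and Galnt6 (0.98 to 0.96), and for Nfatc3 Chd6, Zfp831 and Hdac8 (0.99 to 0.98). Rcan1 was most like Itgb5, Bltp2 and Ntpcr (0.99 to 0.96). Ppp3cb had Arfgef1, Prkce and Ppp4r3a (0.95 to 0.92) and Nfat5 had Glud1, Gpat4 and Arhgap18 (0.92 to 0.91). Ppp3ca had the least close matches, Mettl25, Pon3 and Lonp1 (0.91 to 0.89). The points are few, the candidates many, and libraries and depth are shared, so these values are a description.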

How the data were processed

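Each library was deposited by the authors as a matrix of unnormalized UMI counts, genes by cell barcodes, made with a 10x 3′ version 3.1 kit per the labels' protocols. The submitters' processing notes list Cell Ranger 6.0.1, Seurat 4.0.3 and 4.0.4 and mm10, whereas per the file headers the matrices were written by Cell Ranger 8.0.1. Annotation release, strand setting and intron counting are not stated in the labels or headers. Of 33696 gene IDs, 31961 were found in GENCODE M21, which gave spans and positions.

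Filters of at least 200 genes and at most 20% mitochondrial UMIs left the cells used (9765 WT, 12636 KO). Gates on raw UMIs were T (Cd3d, Cd3e, Cd3g), NK (Ncr1, Klrb1c), B (Cd79a, Cd79b, Ms4a1 and 1 more), macrophage (Csf1r, Adgre1, Fcgr1 and 1 more), dendritic (Flt3, Zbtb46, Xcr1, Clec9a, Cd209a, Ccl22) and tumour (Ddx3y, Eif2s3y, Uty, Kdm5d, with under 2 Ptprc UMIs). Cells in several gates were left out, but some mixed cells remained: 12 WT and 47 KO T-gated and 65 WT and 51 KO macrophage-gated cells had at least 5 Rhox5 UMIs. Scrublet's automatic threshold called 1.26% in WT and 0% in KO, so it had not worked in KO and was used only as an alternative. UMIs were summed per class and library. Levels have exact Poisson and ratios exact conditional 95% intervals. Genes with at least 20 UMIs in 1 library were compared, at least 2-fold counted as called, and classes under 50 cells had no ratio. On Poisson counts simulated at the summed rates of T cells, 95.8% of 11194 intervals held the true ratio. The intervals assume the same model, so this checks their calculation only and not the spread between cells. Pathway genes named are the 3 higher and 3 lower per class whose interval bound nearest 0 lies farthest from 0. Some markers, 1 pathway list and some genes this rule names are not reported here. The 7 members, the lists and the gates were chosen with earlier results of these data known. Python 3.11.15, numpy 2.4.6, scipy 1.17.1 and scanpy 1.11.5 were used. Alternatives were stricter gates and filters, thinning to 2000 UMIs, other denominators, means over cells and leaving out doublet scores, top cells, cells with Rhox5 or cells with Ctsk and Acp5. Thinning left out cells with under 2000 UMIs. Stricter gates doubled the minimum of every gate, so they also raised the UMIs at which a cell was left out as meeting several gates.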

Additional observations from a re-analysis of the deposited data

Results flagged for a closer look

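Nfatc1 and Nfatc3 had KO/WT ratios with intervals on opposite sides of 0 in different cells, and in each case the difference was not tested. Nfatc1 had a log2 ratio of 0.43 in macrophages low in C1q, against -0.85 in CD8 T cells, -0.81 in conventional CD4 T cells, -1.09 in NK cells and -0.33 in tumour cells. The macrophage value was 0.11 (-0.19 to 0.39) without 4 cells rich in Ctsk and Acp5. Nfatc3 had 0.36 in regulatory T cells, from 145 UMIs in WT and 154 in KO, against -0.35 in conventional CD4 T cells, -0.59 in NK cells and -0.42 in macrophages low in C1q. Rcan1 also had intervals on both sides, with 0.86 (0.25 to 1.49) in T cells without Ccr7 and Lef1 UMIs and -0.31 (-0.41 to -0.20) in macrophages. Over all T cells, Rcan1 was at 7.48 CPM in WT and 7.95 in KO once cells with at least 5 Rhox5 UMIs were left out. The part of such cells in the 0.86 was not tested.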

How the results depend on the processing

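The class medians over the 7 genes stayed within the counting interval of the gene at the median in 54 of 63 recalculations under alternatives. That interval belongs to that gene and not to the median itself. In the other 9 the median was -0.54 in tumour cells with stricter gates; -0.32 in macrophages and -0.82 in dendritic cells when cells were thinned before gating; -0.42 in macrophages and -0.54 in tumour cells when thinned after gating; -0.43 in T cells with a denominator without mitochondrial, ribosomal, haemoglobin, Ig and TCR genes; and, with a denominator of long genes, -0.24 in T cells, 0.048 in macrophages and -0.11 in tumour cells. Of single-gene values, 380 moved by less than their counting interval and 59 by more, and 1 at least 2-fold value changed sign, Rcan1 in dendritic cells with stricter gates (0.55); the cause was not tested. Counting values nearer 0 too, 14 of 35 gene-by-class ratios changed sign under some alternative, such as Rcan1 in T cells (-0.53, thinned before gating). Nfatc1 in T cells lay between -0.77 and -0.28 over its alternatives and Nfatc1 in NK cells between -1.23 and -0.62. NK and tumour cells thinned before gating had under 50 cells in a library and no value. The denominator of long genes and leaving out cells with Rhox5, or with Ctsk and Acp5, were chosen after seeing the data. No paired analysis was possible because each genotype is 1 library. Rcan1 had 3 UMIs in KO NK and 11 in KO dendritic cells, so its intervals there are wide.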

Other observations

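The cells with the most Nfatc1 UMIs were also rich in Ctsk (cathepsin K), Acp5 (tartrate-resistant acid phosphatase) and Atp6v0d2, genes best known from bone-resorbing osteoclasts. All 2 WT and 5 KO cells with at least 20 Nfatc1 UMIs had at least 50 UMIs each of Ctsk and Acp5, and the highest cell held 74, against at most 14 in WT and 19 in KO in any other cell. In all, 3 WT and 10 KO cells met this pair of minimums, a division chosen after their values were seen. The 3 WT cells were in the macrophage gate, and of the 10 KO cells 2 were in the macrophage gate, 2 in the T gate with 13 Nfatc1 UMIs, 5 in no gate and 1 in several gates. Summed over these cells Nfatc1 was at 877 CPM (670 to 1129) in WT and 1053 (922 to 1197) in KO, beside 30.0 and 32.2 in the macrophage gate. Atp6v0d2 was at 1214 and 1220 CPM against 8.99 and 15.9 in the macrophage gate, and Ocstamp at 278 and 342 against 10.8 and 8.25. Csf1r was present at 673 and 513 CPM, Col1a1 was at 0 UMIs and Calcr at 0 UMIs in both libraries. Nfatc2 had 0 UMIs in WT and 1 in KO, and Nfat5 0 and 6, beside 275 and 204 CPM of Nfat5 in the macrophage gate. So Nfatc1 was the only NFAT gene of the 4 that was high in these cells. Their median depth was 23871 UMIs in WT and 13738 in KO, and with so few cells no difference between the libraries can be read from them.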
